A study of Homo sapiens with 8 samples.

Results

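The transcription machinery of human cells was examined for binding by FLI1, an ETS family transcription factor, in 2 established cell lines of germinal centre B-cell type diffuse large B-cell lymphoma (GCB DLBCL), OCI-Ly1 and VAL. The genes were taken by symbol from the protein-coding genes of the GENCODE annotation of GRCh37 (release 44), as those that begin with POLR1, POLR2, POLR3, GTF2 or GTF3, or with MED or TAF followed by a digit. This rule took 124 of 20136 protein-coding genes, made up of 33 genes of RNA polymerase subunits, 18 GTF2 genes, 7 GTF3 genes, 36 TAF genes and 30 Mediator genes. Of the 36 TAF genes, 12 are TAF11L copies that lie in a repeated cluster on chromosome 5, and counts are also given for the 112 genes without them.

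The series holds 4 FLI1 ChIP-Seq libraries, 2 of OCI-Ly1 and 2 of VAL, made with a rabbit polyclonal antibody against FLI1, and 4 samples of input DNA, which were not analysed here. The cells carry no treatment or genetic change in the labels, which also do not say whether replicates came from separate cultures. OCI-Ly1 replicate 1 has 37 intervals, 33 of them over 1 Mb, and gave no sites, so that OCI-Ly1 stands below for its replicate 2 alone and its values have no replicate error. In the 3 lists used, 5354 of 1107379 peaks of OCI-Ly1, 973 of 237178 of VAL replicate 1 and 6474 of 986629 of the other VAL replicate had a -log10 q of at least 3, the q being the false discovery rate given by the authors' peak caller, and such peaks are called passing. Passing peaks had 6 or more reads at the summit in OCI-Ly1 and in VAL replicate 2 and 8 or more in VAL replicate 1, as inferred from the fold enrichment and the p-value of each peak.

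A gene was called bound when the best peak centred within 3 kb of any of its transcription start sites (TSS) was passing. The q of a peak depends on the depth of its library, and it is used here to rank and to call within a library and not as an amount. The design has no conditions to compare, and VAL alone has 2 usable libraries, so the results are counts, with Wilson 95% intervals that cover counting error only, and no test was made between complexes.

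As background, 3 RNA polymerases share the work of transcription in the nucleus. Pol I makes the large ribosomal RNA, Pol II makes messenger RNA, and Pol III makes transfer RNA and other short RNAs. Each needs general factors at the promoter, namely SL1 for Pol I, the TFII factors for Pol II, of which TFIID holds the TAF proteins, and the TFIII factors for Pol III, while Mediator links activators to Pol II through head, middle, tail and kinase modules. ETS factors such as FLI1 bind DNA at a GGAA core, often as CCGGAA, in promoters of housekeeping genes as well as in genes of blood cells.

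The letters CCGGAAA or CCGGAAG, on either strand, were sought within 50 bp of the summits. They are shown for the genes bound in all 3 libraries and for the other genes that ranked among the first 12 by the smaller -log10 q of OCI-Ly1 and VAL replicate 2, since their peaks passed in every library or had high values in both lines. Each run is 27 bases of GRCh37, 5′ to 3′ on the strand that carries the motif, with the motif in capitals.
GTF2H1, chr11:18344085-18344111, minus strand: gggcacgtgaCCGGAAGtagcaaggcg
GTF2H2, chr5:70363541-70363567, plus strand: taggggcgccCCGGAAGtcattccgcc
GTF2H3, chr12:124118214-124118240, minus strand: cggaagtgcgCCGGAAGtggggtgcgg
GTF2IRD2B, chr7:74508272-74508298, plus strand: ttcgacagcaCCGGAAAcggcgactcc
MED31, chr17:6554905-6554931, plus strand: gggcgaagttCCGGAAAccacggctcc
TAF12, chr1:28969589-28969615, minus strand: gggagcggtgCCGGAAGtagtcgggga
TAF13, chr1:109618631-109618657, minus strand: ccgcgcgtcaCCGGAAGtgaggcggcg
POLR1B, chr2:113299990-113300016, minus strand: tcggtacacgCCGGAAGtagtggccgc
POLR2C, chr16:57496556-57496582, minus strand: accgccaacaCCGGAAGtcagtcagcg
POLR2J3, chr7:102213030-102213056, minus strand: ccggagtaatCCGGAAGaggcctctta

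GTF2H2C carries the same 27 bases as GTF2H2 (chr5:68855984-68856010, minus strand), and GTF2IRD2 the same as GTF2IRD2B (chr7:74267921-74267947, minus strand). MED23, also among the first 12, has neither motif within 50 bp of a summit. The middle of each motif printed lies within 100 bp of an annotated TSS of its gene. It falls in an untranslated exon of GTF2H1, MED31, POLR2J3 and TAF12 and in an exon that some transcript of POLR1B translates. For GTF2H2, GTF2H2C, GTF2H3, GTF2IRD2, GTF2IRD2B, POLR2C and TAF13 it lies outside the gene, on the upstream side of its start, and in GTF2H3 this is an untranslated exon of the neighbour EIF2B1.

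FLI1 bound the promoters of 70 of the 124 genes in at least 1 library (56.5%, interval 47.7 to 64.9%), against 27.4% of all protein-coding genes. OCI-Ly1 had 52 bound genes (41.9%, background 19.0%). The VAL libraries differed, with 11 in replicate 1 (8.87%, background 3.14%) and 57 in replicate 2 (46%, background 20.9%). Both lines bound 39 genes (31.5%, interval 24 to 40.1%, background 12.6%), and all 3 libraries bound 8 (6.45%, background 2.74%). All 11 genes bound in VAL replicate 1 were also bound in VAL replicate 2. The count in both lines was 8 without VAL replicate 2, against 2.82% of all protein-coding genes. The count in all libraries was 39 without VAL replicate 1, against 12.5%. Of the 112 genes other than TAF11L copies, 62 were bound in any library (55.4%) and 33 in both lines (29.5%). The median -log10 q of the best peak, bound or not, was 2.5 in OCI-Ly1, against 1.22 for all protein-coding genes. In the VAL libraries it was 0.21 against 0.183 and 2.7 against 1.64, in the order of the replicates.

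Since housekeeping promoters are often rich in CpG, the genes were also set beside CpG-rich promoters alone. Of the 124 genes, 87 have such a promoter, defined after the data were seen as a kilobase around the canonical TSS with a GC share of at least 0.55 and an observed to expected CpG ratio of at least 0.6. Of these 87 genes, 49 were bound in any library (56.3%) and 27 in both lines (31%). Among the 12008 protein-coding genes with such a promoter the shares were 36.2% in any library and 17.2% in both lines. In OCI-Ly1 the described genes with a CpG-rich promoter were bound in 42.5%, against 25.5% of all such genes. The VAL shares were 6.9% against 4.09% in replicate 1 and 44.8% against 27.6% in replicate 2, and 5.75% against 3.64% were bound in all 3 libraries. The intervals of VAL replicate 1 (3.2 to 14.2%) and of all 3 libraries (2.48 to 12.8%) include the share of all such genes. Those of the other counts in this paragraph lie above it.

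Binding was spread over all families. The share bound in any library was 60.6% for RNA polymerase subunits (20 of 33, interval 43.7 to 75.3%), 55.6% for GTF2 genes (10 of 18, 33.7 to 75.4%), 57.1% for GTF3 genes (4 of 7, 25 to 84.2%), 58.3% for TAF genes other than TAF11L copies (14 of 24, 38.8 to 75.5%) and 46.7% for Mediator (14 of 30, 30.2 to 63.9%). All of these intervals overlap, so no order of the families can be read from them. Those of GTF2, GTF3 and Mediator include the 36.2% of all genes with a CpG-rich promoter, and that of GTF3 also the 27.4% of all protein-coding genes. Binding in both lines ranged from 23.3% for Mediator (7 of 30) and 24.2% for RNA polymerase (8 of 33) to 38.9% for GTF2 (7 of 18) and 42.9% for GTF3 (3 of 7), again with overlapping intervals. Here those of RNA polymerase, GTF3 and Mediator include the 17.2% of all genes with a CpG-rich promoter, and that of Mediator also the 12.6% of all protein-coding genes. In all 3 libraries together, FLI1 bound 5 of 18 GTF2 genes (27.8%, interval 12.5 to 50.9%) and 0 of 33 RNA polymerase genes (0 to 10.4%), the families whose intervals do not overlap here. This separation was lost without the paralogs and other genes outside the complexes proper, with 3 of 12 GTF2 genes (8.89 to 53.2%) and 0 of 30 RNA polymerase genes (0 to 11.4%). The other counts were 0 of 7 for GTF3, 2 of 24 for TAF and 1 of 30 for Mediator. These counts rest on VAL replicate 1, the list with the fewest passing peaks, and 3 of the 5 GTF2 genes are near-identical copies.

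**Figure D1:**
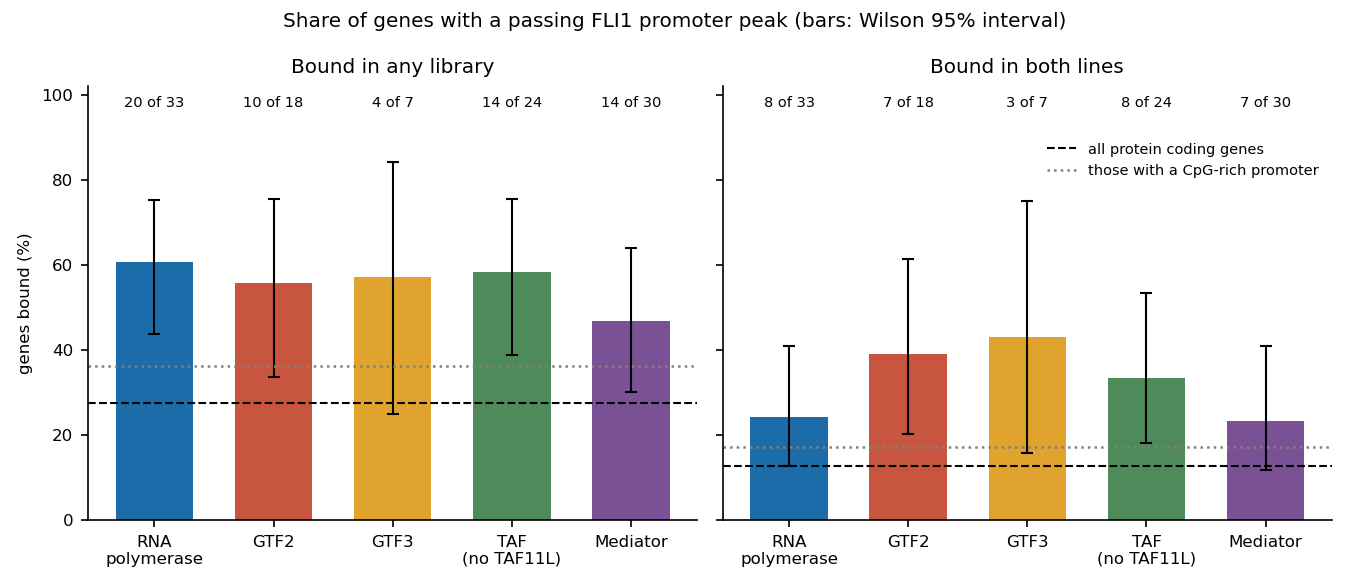
Share of bound genes, as bars in percent by family (x axis), bound in any library (left) or in both cell lines (right), with Wilson 95% intervals. Dashed lines mark all protein-coding genes (27.4% and 12.6%) and dotted lines those with a CpG-rich promoter (36.2% and 17.2%), and all bars stand above both lines while their intervals overlap one another. The intervals of GTF2, GTF3 and Mediator (left) and of RNA polymerase, GTF3 and Mediator (right) include the dotted line. Those of GTF3 (left) and Mediator (right) include the dashed line too.

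**Figure D2:**
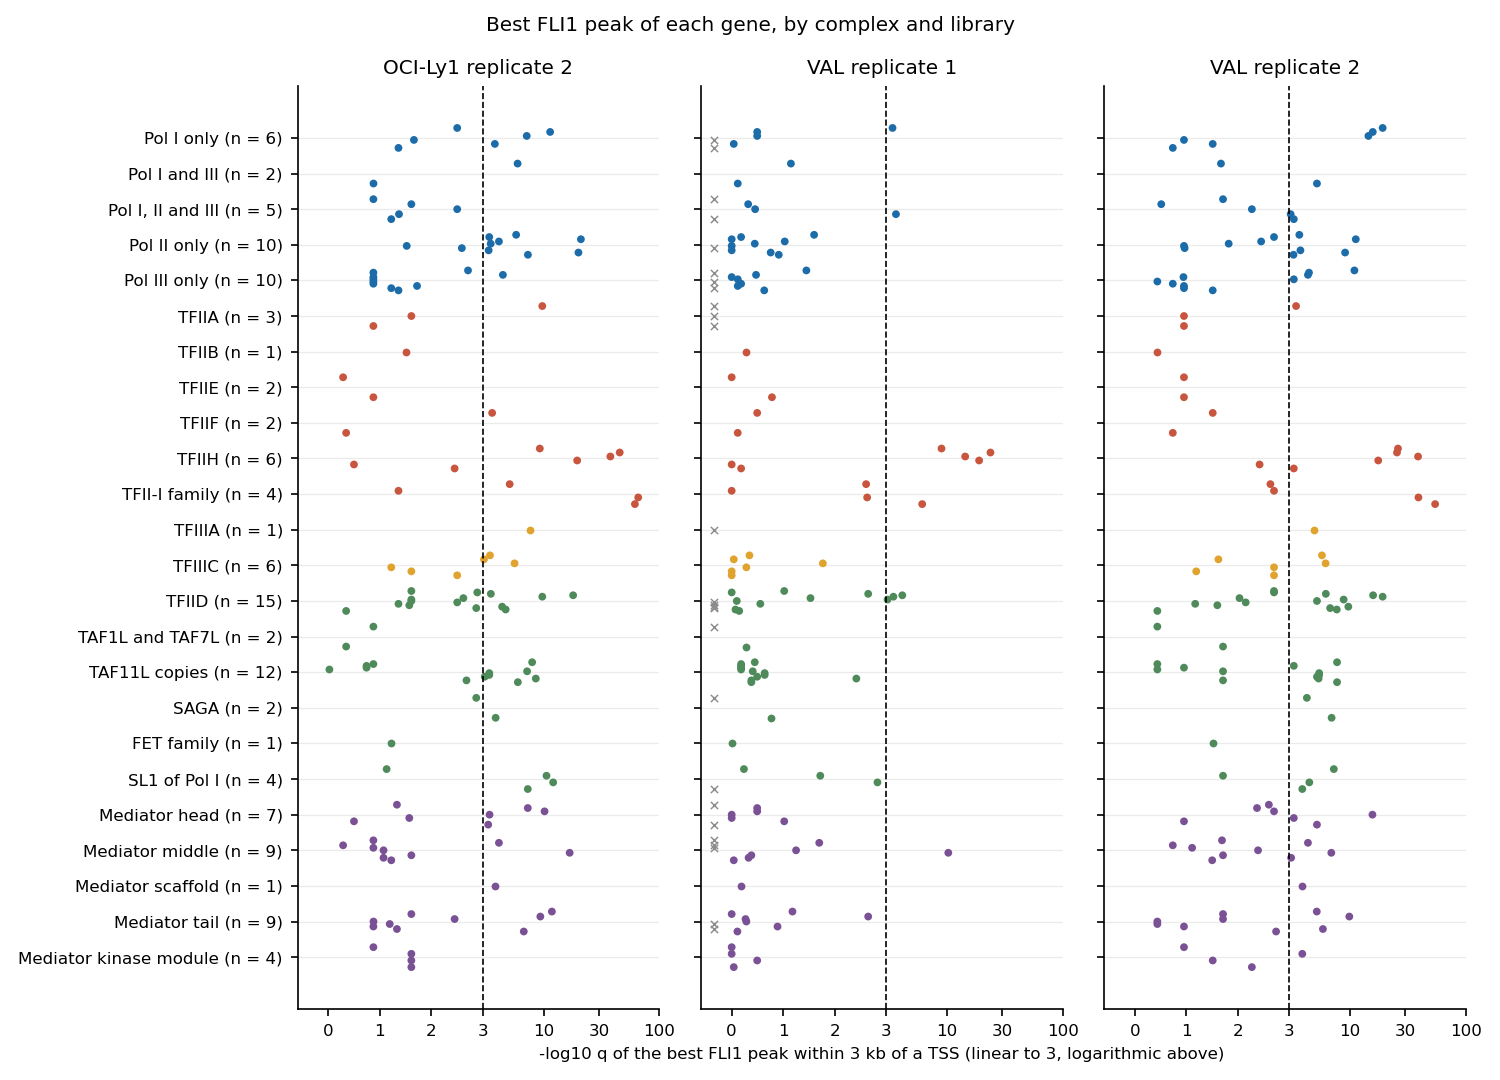
Each point is a gene, placed by the -log10 q of its best FLI1 peak within 3 kb of a TSS (x axis, linear to 3 and logarithmic above) in its complex (y axis), with 1 panel per library, colours for the 5 families, a dashed line at the threshold of 3 and a cross where no peak was listed. TFIIH has 4 of 6 genes past the threshold in every library, and the points of the TFIIE and TFIIB genes stay under it in all 3.

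Among the general factors of Pol II, TFIIH, which opens the promoter and also serves in DNA repair, had the largest share of bound genes. This share rests on 6 genes, the copy GTF2H2C among them. Its interval, given below, overlaps those of TFIIA, TFIIB, TFIID, TFIIE and TFIIF, so no order can be read from it. The TFIIH core genes GTF2H1, GTF2H2 and GTF2H3, and the copy GTF2H2C, were bound in all 3 libraries. GTF2H1 had a -log10 q of 9.28 in OCI-Ly1, 9.0 in VAL replicate 1 and 25.9 in the other VAL library. Values given as a set of 3 keep this order from here on. GTF2H3 had 19.5, 19.0 and 17.5, with 19, 29 and 17 reads at the summit. Both are far inside the threshold in each library, and neither has a second copy of its summit sequence in GRCh37. Their peaks are shared with neighbours, since that of GTF2H3 lies closer to a start of EIF2B1 in all 3 libraries and that of GTF2H1 lies at the divergent gene HPS5, closer to it in VAL replicate 2. Given to the gene of the closest TSS alone, GTF2H3 would be bound in 0 libraries and GTF2H1 in 2.

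GTF2H2 had 45.4, 23.8 and 25.4, and GTF2H2C had 37.7, 14.4 and 38.6. For these genes the 51 bases around the summit occur 3 times in GRCh37, so that which copy was bound is uncertain, although the methods keep only reads that map once. The small subunit GTF2H5 was bound in VAL replicate 2 alone, at 3.27 with 6 reads, against 2.45 in OCI-Ly1 and 0.183 in VAL replicate 1, and its peak is shared with the divergent gene SERAC1. GTF2H4 stayed at 2.42 or lower. TFIIH thus had 5 of its 6 genes bound in any library (83.3%, interval 43.6 to 97%, against 27.4% of all protein-coding genes).

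TFIIA, TFIIB, TFIIE and TFIIF together had 2 of 8 genes bound in any library (25%, interval 7.15 to 59.1%), where the share of all protein-coding genes was 27.4%. GTF2A1, the large subunit of TFIIA, which steadies the TATA binding protein on DNA, was bound in both lines, with 9.75 in OCI-Ly1 and 3.42 in VAL replicate 2 and no listed peak in VAL replicate 1. GTF2A2 (highest value 0.952) and the germ cell paralog GTF2A1L (1.61) were not bound. GTF2B, which is TFIIB and places the start site, had 1.5, 0.282 and 0.435 in the 3 libraries. Both TFIIE genes stayed under 1 in every library, and GTF2F1 of TFIIF was bound in OCI-Ly1 alone at 3.6, with 0.495 and 1.51 in VAL, while GTF2F2 reached 0.735.

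The TFII-I family carries the GTF2 symbol, but its proteins bind DNA by sequence and are not part of the Pol II start complex. GTF2IRD2 and GTF2IRD2B held the highest values of all 124 genes in OCI-Ly1 and in VAL replicate 2, though not in VAL replicate 1. GTF2IRD2 had 65.6, 2.63 and 38.9, and GTF2IRD2B had 61.4, 6.13 and 54.2. Both summits lie in a sequence of 51 bases that occurs 2 times in GRCh37, so these values cannot be assigned to either gene with certainty. GTF2I was bound in OCI-Ly1 alone (5.1, against 2.61 and 2.63 in VAL), at a sequence found 12 times, and GTF2IRD1 missed the threshold with a highest value of 2.7.

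TFIID, which recognises the core promoter through the TATA binding protein and its TAF proteins, had 8 of 15 genes bound in any library (53.3%, interval 30.1 to 75.2%) and 5 in both lines. The interval lies above the 27.4% of all protein-coding genes and includes the 36.2% of those with a CpG-rich promoter. TAF12 and TAF13, which carry histone folds, were bound in all 3 libraries. TAF12 had 18, 4.13 and 15.8, with 3 motif matches within 50 bp of each summit. TAF13 had 9.75, 3.46 and 19.1, and its summits in OCI-Ly1 and VAL replicate 2 lie 1 bp apart. Also bound in both lines were TAF7 (4.39 and 9.66 in OCI-Ly1 and VAL replicate 2), TAF9 (4.71 and 7.68) and TAF11 (3.51 and 6.18).

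In VAL alone FLI1 bound TAF3, TAF4 and TAF8. TAF3, whose protein reads a histone mark of active promoters, passed in both VAL libraries (3.08 and 8.8) and had 1.61 in OCI-Ly1, with its summits between 124 and 131 bp upstream of a TSS in all 3. The TAF8 peak (6.73 in VAL replicate 2, 2.87 in OCI-Ly1) lies 1807 bp upstream and closer to the divergent gene CCND3. TAF1, the largest subunit, had 1.61, 1.02 and 2.7 and was not bound, nor were TAF2, TAF4B, TAF5, TAF6, TAF9B and TAF10, of which TAF10 came nearest at 2.89 in OCI-Ly1.

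Among the relatives of TFIID subunits, TAF5L and TAF6L, which belong to the SAGA coactivator, were both bound in VAL replicate 2 (4.24 and 6.93). Of these, TAF6L was also bound in OCI-Ly1, at 3.86. The germline paralogs TAF1L and TAF7L reached 0.873 and 1.71, and TAF15, an RNA-binding protein of the FET family, 1.51. The TAF11L copies had 8 of 12 genes bound in any library and 6 in both lines, against 27.4% and 12.6% of all protein-coding genes. None was bound in VAL replicate 1, where the share of all protein-coding genes was 3.14%. No passing peak of these copies had the motif near its summit and none of their promoters holds it, and for 7 of the 8 the 51 bases at the summit occur from 3 to 12 times in GRCh37. Where 2 copies lie close together, 1 peak served both, as at TAF11L4 and TAF11L5.

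SL1, which recruits Pol I to the ribosomal RNA genes, had all 4 of its TAF1 genes bound in some library (interval 51 to 100%, against 27.4% of all protein-coding genes). TAF1C was bound in both lines, with 12.1, 2.83 and 4.45. TAF1B was bound in OCI-Ly1 alone (10.6, against 1.72 and 1.71 in VAL), with 3 motif matches at its summit, and TAF1A in VAL replicate 2 alone (7.24, against 1.13 in OCI-Ly1). These genes thus show both directions between the lines. TAF1D counts as bound in both lines through different places, since its peak in OCI-Ly1 (7.31) is that of the promoter it shares with MED17, while its peak in VAL replicate 2 (3.87) lies 42466 bp away at another of its annotated starts, near C11orf54.

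Of the subunits found only in Pol I, 4 of 6 were bound in any library (66.7%, interval 30 to 90.3%, against 27.4% of all protein-coding genes). POLR1B, the second largest, had 11.4 in OCI-Ly1 and 15.7 in VAL replicate 2 with summits 16 bp apart, and POLR1E had 7.16 and 14.4 with summits 5 bp apart. In VAL replicate 1 both had 0.495 and were not bound. POLR1A, which holds the active site, was bound in both VAL libraries, at 3.4 and 19.1, and had 2.5 in OCI-Ly1. Its VAL peaks differ in place, with the summit 458 bp downstream of a TSS in replicate 1 and 257 bp upstream in replicate 2. Both summits (86263735 and 86264450 on chromosome 2) lie inside the gene, near internal annotated starts and far from its 5′ end at 86333278. POLR1G was bound in OCI-Ly1 alone (3.8) by a peak 2344 bp upstream that lies closer to PPP1R13L, and POLR1F and POLR1H stayed at 1.66 or lower.

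Pol II had 8 of its 10 own genes bound in any library (80%, interval 49 to 94.3%) and 5 in both lines, against 4 and 1 of the 10 genes of Pol III (40%, interval 16.8 to 68.7% for any library). These intervals overlap, and that of Pol III includes the 27.4% of all protein-coding genes. In both lines the Pol II share was 50% (interval 23.7 to 76.3%) and the Pol III share 10% (1.79 to 40.4%). The share of all protein-coding genes was 12.6% there, which the Pol III interval includes. Without the paralogs POLR2J2 and POLR2J3 and without POLR2M, all bound in both lines, Pol II had 7 genes. Of these, 5 were bound in any library (71.4%, interval 35.9 to 91.8%) and 2 in both lines (28.6%, interval 8.22 to 64.1%). The latter interval includes the 12.6%. POLR2A, whose protein bears the long C-terminal repeat domain, had 5.8, 1.6 and 3.65, and the peaks are shared with the divergent gene ZBTB4. POLR2C, which helps to hold the enzyme together, had 21.0, 0.0 and 11.2, with summits 12 bp upstream of a TSS in OCI-Ly1 and at it in VAL replicate 2. It thus had high values in 1 library of each line and was not bound in VAL replicate 1, where its best peak lay 1030 bp downstream.

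POLR2M, whose product binds Pol II and counters Mediator, was bound at 7.33 and 3.25 in OCI-Ly1 and VAL replicate 2. POLR2J3 (20 and 9.06) and POLR2J2 (3.36 and 3.73), paralogs of POLR2J, were bound at summits whose sequence occurs 2 and 3 times in GRCh37, while POLR2J itself had 2.59 and 0.965. POLR2B, POLR2D and POLR2G were bound in OCI-Ly1 alone, at 3.4, 4.12 and 3.5. Their values in VAL replicate 2 were 2.7, 2.45 and 1.82, and the summits of POLR2D and POLR2G lay within 30 bp of a TSS in every library. POLR2I reached 1.52.

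For Pol III, which transcribes the transfer RNA genes, POLR3C was the gene bound in both lines, at 4.46 in OCI-Ly1 and 4.33 in VAL replicate 2, with a peak shared with RNF115. The other 3 bound genes were bound in VAL replicate 2 alone. POLR3A, the largest subunit, had 10.9 there against 2.71 in OCI-Ly1 and 1.45 in VAL replicate 1. POLR3B, which completes the catalytic centre, had 4.42 against 0.873 in OCI-Ly1, and POLR3E had 3.27 against 0.873. Among those not bound were POLR3D, POLR3F, POLR3G, POLR3GL and POLR3K, with values up to 1.72.

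The 2 subunits shared by Pol I and Pol III were each bound in 1 line, POLR1C in OCI-Ly1 (5.97) and POLR1D in VAL replicate 2 (5.18, against 0.875 in OCI-Ly1). Of the 5 subunits common to all 3 polymerases, none was bound in OCI-Ly1 (interval 0 to 43.4%, against 19.0% of all protein-coding genes). POLR2K passed in both VAL libraries (3.64 and 3.07, against 1.37 in OCI-Ly1) and POLR2L in VAL replicate 2 (3.27). POLR2E, POLR2F and POLR2H were not bound, with highest values of 1.71, 1.61 and 2.5. The genes that the symbol rule took were also counted by enzyme, with the shared subunits and without the POLR2J paralogs and POLR2M. Pol I had 8 of 13 genes bound in any library (61.5%, interval 35.5 to 82.3%). Pol II had 7 of 12 (58.3%, 32 to 80.7%) and Pol III 8 of 17 (47.1%, 26.2 to 69%). In both lines the counts were 2, 2 and 1 (15.4%, 16.7% and 5.88%), and all of these intervals overlap. For any library, all 3 intervals include the 36.2% of genes with a CpG-rich promoter. That of Pol III also includes the 27.4% of all protein-coding genes. The intervals for both lines (4.33 to 42.2%, 4.7 to 44.8% and 1.05 to 27%) include the background shares of 12.6% and 17.2%.

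Among the factors of Pol III, GTF3A, the zinc finger protein TFIIIA, had 7.62 in OCI-Ly1 and 4.93 in VAL replicate 2, with summits 8 bp apart and no listed peak in VAL replicate 1. TFIIIC, which binds within transfer RNA genes, had 3 of 6 genes bound (50%, interval 18.8 to 81.2%, which includes the 27.4% of all protein-coding genes). GTF3C1, the largest subunit, had 3.45 in OCI-Ly1 and 5.72 in VAL replicate 2 at a promoter shared with KATNIP, and GTF3C3 had 5.62 and 6.15. Both were bound in both lines, while GTF3C2 passed in OCI-Ly1 alone, at 3.06 against 1.62. GTF3C4 and GTF3C6 came close, each with a highest value of 2.7, and GTF3C5 reached 1.61.

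Mediator, the largest of these assemblies, had 14 of 30 genes bound in any library and 7 in both lines. In the head, which contacts Pol II, 5 of 7 genes were bound (71.4%, interval 35.9 to 91.8%, against 27.4% of all protein-coding genes). MED20 had 3.42 in OCI-Ly1 and 15.6 in VAL replicate 2, at a promoter shared with BYSL, and MED8 had 3.33 and 5.18. MED17, the central head subunit, and MED18 were bound in OCI-Ly1 alone, at 7.31 and 10.2, with 2.37 and 2.7 in VAL replicate 2. MED22 was bound in VAL replicate 2 (3.27) by a peak closer to RPL7A, and MED6 and MED11 were not bound, with highest values of 1.02 and 2.6.

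The middle module held MED31, the Mediator gene bound in all 3 libraries, with 16.8, 10.3 and 6.89. Its peak is shared with the divergent gene C17orf100. MED10 was bound in both lines at 4.12 and 4.33 with summits 7 bp apart, and MED7 in VAL replicate 2 at 3.1. MED1, the subunit that receives nuclear receptors and marks strong enhancers, had 0.873 in OCI-Ly1, 1.69 in VAL replicate 2 and no listed peak in VAL replicate 1. MED4, MED9, MED19, MED21 and MED26 were not bound, with values up to 2.39. This leaves 3 of 9 middle genes bound (33.3%, against 27.4% of all protein-coding genes).

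MED14, the scaffold that joins the modules, was bound in both lines at 3.82 and 3.87, with 6 reads at each summit. In the tail, where activators dock, MED15 had 11.8 in OCI-Ly1 and 5.16 in VAL replicate 2 with summits 5 bp apart, and MED23 had 9.38 and 9.85, with 2.65 in VAL replicate 1, at a promoter shared with ENPP3. MED30 was bound in OCI-Ly1 (6.75, against 2.74 in VAL replicate 2) and MED29 in VAL replicate 2 (5.83, against 1.33 in OCI-Ly1) at a promoter shared with PAF1. MED16, MED24, MED25, MED27 and MED28 were not bound, with values up to 2.45. The kinase module, which can hold Mediator away from Pol II, had 1 of 4 genes bound (25%, against 27.4% of all protein-coding genes). This was the paralog MED12L in VAL replicate 2 (3.87), while MED12 reached 0.952, MED13 1.61 and MED13L 2.27.

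The lines were then compared gene by gene. Apart from the 39 genes bound in both, 13 were bound in OCI-Ly1 alone and 18 in VAL alone, and 54 in neither. Of all 20136 protein-coding genes, 3824 were bound in OCI-Ly1, 2540 in both lines and 5527 in any library. There too, more genes were bound in VAL alone than in OCI-Ly1 alone. For the 13 genes bound in OCI-Ly1 alone, the highest value in VAL ran from 1.51 to 2.74. The 18 genes bound in VAL alone had from 0.74 to 2.87 in OCI-Ly1, and 9 of them, MED7, MED29, POLR1D, POLR2K, POLR2L, POLR3B, POLR3E, TAF1A and TAF11L13, were under 1.5 there. With 1 OCI-Ly1 library the difference between the lines cannot be told apart from a difference between libraries. Just inside the threshold, with a highest value up to 3.5, lay GTF2H5, GTF3C2, MED7, MED22, POLR2B, POLR2G, POLR2L, POLR3E and TAF11L13. Just outside, from 2.5 before rounding, lay GTF2IRD1, GTF3C4, GTF3C6, MED11, POLR2J, TAF1, TAF2, TAF10 and TAF11L8.

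**Figure D3:**
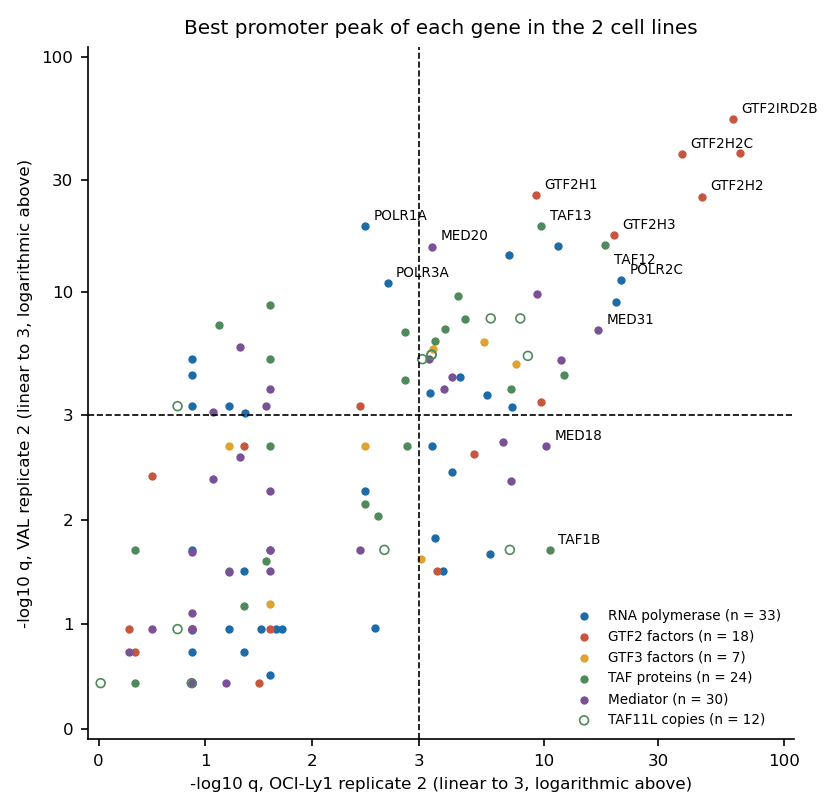
The -log10 q of the best promoter peak of each gene in OCI-Ly1 (x axis) and in VAL replicate 2 (y axis), both linear to 3 and logarithmic above, with colours for the families, open circles for the TAF11L copies and dashed lines at the threshold of 3. The 39 genes in the upper right are bound in both lines, with GTF2IRD2B at 61.4 and 54.2, while POLR1A (2.5 and 19.1) and TAF1B (10.6 and 1.71) lie far from the diagonal.

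The place of the peaks was compared as well. For the 33 genes other than TAF11L copies that were bound in both lines, the summits of OCI-Ly1 and VAL replicate 2 lay a median of 35 bp apart, 12 of them within 20 bp and 26 within 100 bp. The 7 genes with summits over 100 bp apart were GTF3C1, MED8, MED14, MED20, POLR2A, POLR2J2 and TAF1D, which were named after their values were seen. Most summits sat at an annotated start site, and such a start can be internal to the gene, as those nearest the summits at POLR1A and GTF2I. Without the TAF11L copies, 38 of 45 summits of OCI-Ly1 were within 100 bp of the nearest TSS of the gene, as were 9 of 11 and 39 of 50 of the VAL replicates. The median distances were 29, 43 and 29.5 bp, and 27, 10 and 37 of the summits lay upstream. These distances were not taken over all protein-coding genes. With the 5′ end of the gene as its only start, 65 of the 124 genes were bound in any library and 36 in both lines, against 23% and 10.7% of protein-coding genes. The summits of the TAF11L copies were all more than 250 bp from the TSS.

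**Figure D4:**
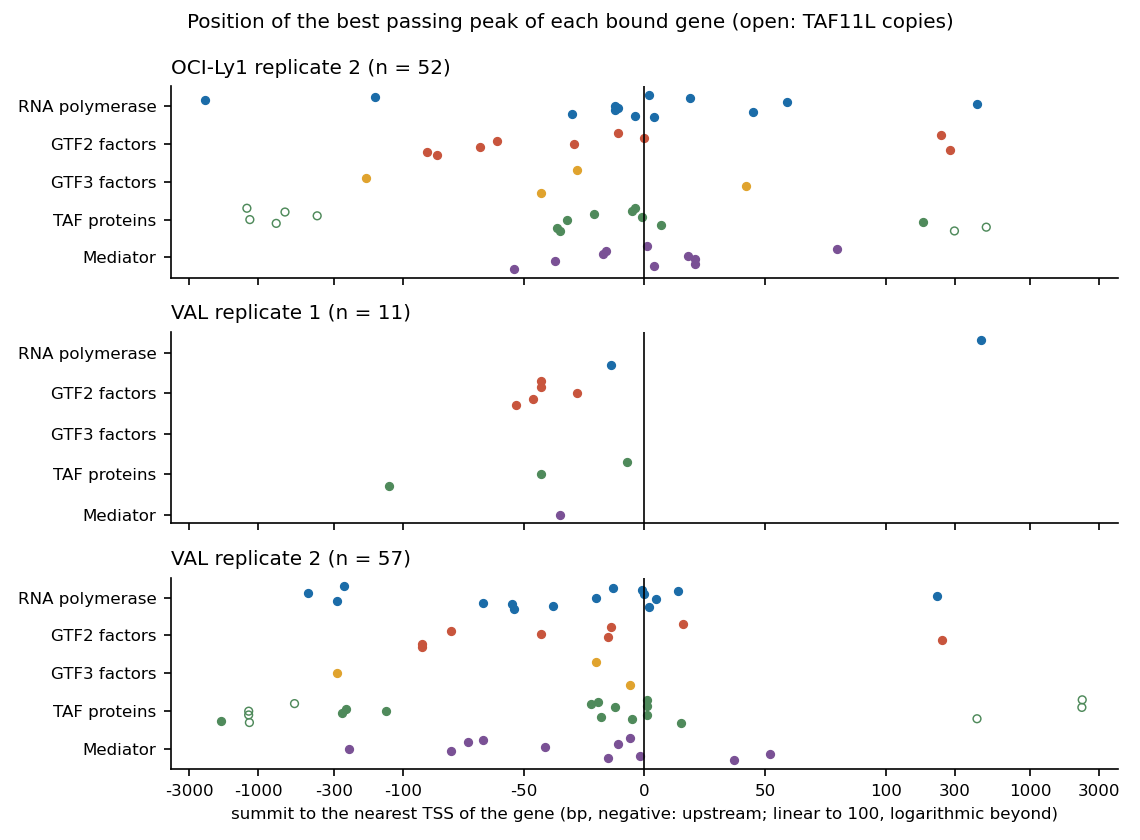
Distance in bp from the summit of the best passing peak to the nearest TSS of its gene (x axis, negative upstream, linear to 100 and logarithmic beyond), by family (y axis) and library (panels with 52, 11 and 57 genes). Filled points gather within 100 bp of the TSS, 38 of 45 in OCI-Ly1, while the open points of the TAF11L copies lie farther out.

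A peak at a promoter may belong to a neighbour. Of the 62 bound genes other than TAF11L copies, 25 shared a peak with another protein-coding gene, and for 24 of them a start site of that gene lay on the opposite strand within 1 kb. Such sharing was not counted over all bound protein-coding genes, so it cannot be called particular to the described genes. A pair of the described genes, MED17 and TAF1D, share a promoter in this way, so that 1 peak of OCI-Ly1 counts for both. When each peak was given only to the gene of the closest TSS, 62 of the 124 genes remained bound in any library and 30 in both lines, against 21.8% and 8.15% of protein-coding genes.

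The motif was frequent at the summits. Of the passing peaks near the described genes without the TAF11L copies, 33 of 46 in OCI-Ly1 held CCGGAAA or CCGGAAG within 50 bp of the summit (71.7%, interval 57.5 to 82.7%). In VAL these were 9 of 11 peaks of replicate 1 (81.8%, 52.3 to 94.9%) and 26 of 52 of replicate 2 (50%, 36.9 to 63.1%). In windows of the same size 250 bp to either side the shares were 6.52%, 0% (0 of 22 windows) and 4.81%. Among the passing peaks of all protein-coding promoters, 48.6%, 61.6% and 41.7% held the motif. The interval of OCI-Ly1 lies above the share of all promoters, those of the VAL libraries include it, and with the TAF11L copies it was 60% (33 of 55 peaks, interval 46.8 to 71.9%). Of the 62 bound genes other than TAF11L copies, 21 had no match within 50 bp of the best peak in any library, and the highest values among these were those of POLR1A (19.1), MED23 (9.85), TAF7 (9.66), MED30 (6.75), TAF8 (6.73), TAF11 (6.18) and GTF3C3 (6.15). TAF12, by contrast, had 3 matches in each library.

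The promoter sequence was also read regardless of any peak, from 250 bases upstream to 50 downstream of the canonical TSS. Either motif, on either strand, stood in 52 of the 112 promoters without the TAF11L copies (46.4%, interval 37.5 to 55.6%), against 18.1% of all protein-coding promoters. By family the count was 15 of 33 for RNA polymerase, 8 of 18 for GTF2, 5 of 7 for GTF3, 12 of 24 for TAF and 12 of 30 for Mediator. It stood in 26 of the 33 genes bound in both lines (78.8%), in 14 of the 29 bound in 1 line (48.3%) and in 12 of the 50 bound in none (24%). Over all protein-coding genes the share was 54.1% for those bound in both lines and 9.68% for those bound in none. Read the other way, 40 of the 52 described promoters with the motif were bound in any library (76.9%, against 61.2% of all protein-coding promoters with it) and 22 of the 60 without it (36.7%, against 20%).

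The 12 genes with the motif in the promoter and no passing peak included GTF2A2, GTF3C6, MED6, MED11, MED12, MED28, POLR2F, POLR2J, POLR3GL, TAF1 and TAF1L. Some of them came near the threshold, as TAF1 and GTF3C6 (2.7 each in VAL replicate 2), and others did not, as MED12 and GTF2A2 (0.952 each). The 7 genes bound in both lines without the motif in this window were GTF2A1, MED10, MED14, MED23, POLR2A, POLR2J3 and TAF11. At POLR2J3, a symbol that the annotation gives to 2 gene identifiers, the motif printed above lies just outside this window, with its middle 57 bp downstream of the canonical TSS used and 13 bp upstream of another annotated start.

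**Figure D5:**
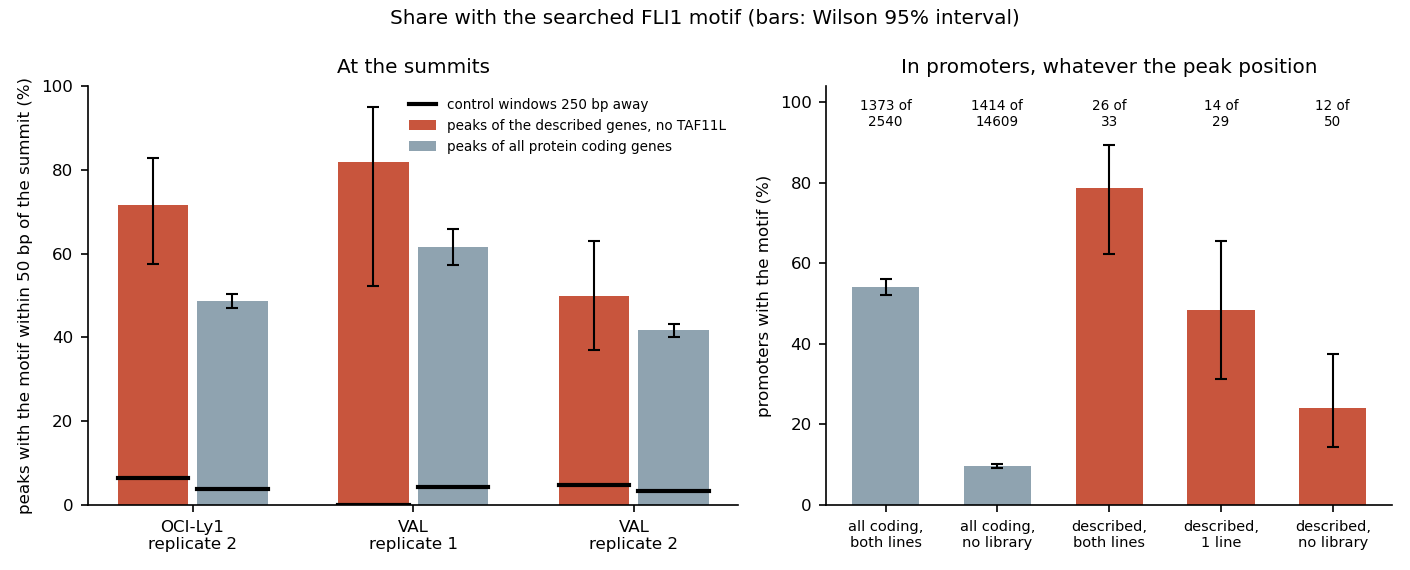
Left, percent of passing peaks with CCGGAAA or CCGGAAG within 50 bp of the summit by library, for the described genes without TAF11L copies and for all protein-coding genes, with Wilson 95% intervals and black lines for windows 250 bp away. Right, percent of promoters that hold the motif, for protein-coding genes bound in both lines or in no library and for the described genes bound in both lines, 1 line or no library, where the share goes from 78.8% to 48.3% and 24%.

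Partner genes with other symbols complete several of these complexes, and 26 were called in the same way. FLI1 bound 17 of them in any library (65.4%, interval 46.2 to 80.6%, against 27.4% of all protein-coding genes) and 11 in both lines (42.3%, interval 25.5 to 61.1%, against 12.6%). For TFIIH these were the kinase and cyclin genes CDK7 (3.38 in OCI-Ly1 and 3.84 in VAL replicate 2) and CCNH (3.82 and 12.8), and for the Mediator kinase module CCNC (3.8 and 4.23), while CDK8 and CDK19 were not bound. TBP, the TATA binding protein, had 8.49 and 3.27 with summits 957 and 951 bp upstream of its nearest TSS. Whether these peaks, or those of other partners, are shared with a neighbouring gene was not examined. TBPL1, a relative of TBP, had the highest values of the partners, 40.4, 9.95 and 54.4 in the 3 libraries.

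Of the TFIIIB genes, which bring Pol III to its promoters, BRF2 had 7.73, 5.35 and 20.4 in the 3 libraries and BRF1 had 13.7, 9.88 and 11.9. The BRF1 peaks lie inside the gene, about 3 kb upstream of an internal annotated start and far from its 5′ end (105781926 on chromosome 14). RRN3, which makes Pol I ready to start, was bound in both lines at 4.95 and 3.27. The elongation factor genes SUPT4H1 (13.3 and 20.2), SUPT5H (8.1 and 11.5) and NELFE (16.5 and 17.1) were bound in both lines too. Of all partners, TBPL1, BRF1 and BRF2 were bound in all 3 libraries. The 6 bound in 1 line were ERCC3, NELFB and NELFCD in OCI-Ly1 and UBTF, SNAPC4 and SNAPC5 in VAL replicate 2, with ERCC3, a helicase of TFIIH, at 6.84 and SNAPC5 at 7.42. ERCC2, MNAT1, CDK8, CDK19, BDP1, NELFA, SNAPC1, SNAPC2 and SNAPC3 were not bound.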

How the data were processed

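FLI1 ChIP-Seq peak lists of OCI-Ly1 (replicate 2) and VAL (replicates 1 and 2) were used, 1 list per library. The authors mapped reads to GRCh37 with bowtie2, and with SAMtools kept those that map once with a quality of at least 10, without duplicates. Their methods name HOMER for the peaks, the submitters' processing notes name hg19, CASAVA 1.4 and BWA, and the lists have the form that MACS2 writes, so that the caller, its control and its settings are not given in the sources used here. The fold enrichment of a peak is a ratio over the local background, made by the authors' peak caller. The -log10 p and -log10 q of a peak are likewise deposited values of that caller, and how q was adjusted is not stated.

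From these lists, the peak with the highest -log10 q centred within 3 kb of any annotated TSS was taken for each gene (GENCODE release 44 on GRCh37, no chromosome ends past the reference, mitochondrial genes left out), with 3 as the threshold, which is a false discovery rate of 0.001. Reads at a summit were inferred as the whole number that gives both the fold, taken as (reads + 1) over (background + 1), and the Poisson p-value. Motifs were read from GRCh37, and for peaks counted once where they serve more than 1 gene. A canonical transcript was marked for 123 of the 124 genes, and the 5′ end of the gene was used for the other.

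The genes and complexes were chosen with earlier results of these data known. All genes entered the counts, and some single results are not reported here. Those chosen by rule for their values were the genes bound in all 3 libraries, the first 12 by the smaller -log10 q of OCI-Ly1 and VAL replicate 2, the highest of each complex, the largest subunits and scaffolds, those with a highest value from 2.5 to 3.5, those bound in 1 line and under 1.5 in the other, and the partner genes bound in both lines. OCI-Ly1 replicate 1 and the input DNA entered no count. The scripts were tested on simulated data. Alternatives covered the threshold, the fold, the number of top peaks, the distance and choice of TSS, the gene list, each library and the motif. The work used python 3.11.15, pandas 2.3.3, scipy 1.17.1, pysam 0.24.0, samtools 1.23.1 and matplotlib 3.10.9.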

Additional observations from a re-analysis of the deposited data

Results flagged for a closer look

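OCI-Ly1 replicate 1, which no comparison uses, has 1 interval with a -log10 q of at least 3 (3.57, fold enrichment 3.0), and it spans most of chromosome 2. The TSS of 7 of the described genes lie inside it, namely GTF2A1L, GTF3C2, GTF3C3, POLR1A, POLR1B, POLR2D and TAF1B. An interval of that length marks no site, and no gene was called bound from it.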

How the results depend on the processing

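No paired analysis was possible because the results are counts that come from no test, and OCI-Ly1 has 1 usable library. The count of genes bound in any library stayed within 1.5 times its value under every alternative except the top 1000 peaks of each list. With a -log10 q of at least 2, VAL replicate 1 had 17 bound genes and all libraries 15, against 5.12% and 4.22% of all protein-coding genes. With at least 5, the counts were 32 in OCI-Ly1 replicate 2, 6 and 37 in the VAL replicates and 19 in both lines. The families had 10 for RNA polymerase and 9 for Mediator. Of all protein-coding genes, 11.9% were then bound in OCI-Ly1 replicate 2, 1.79% and 12.2% in the VAL replicates and 7.59% in both lines. With the top 5000 peaks of each list, VAL replicate 1 had 23 and all libraries 16, against 7.84% and 4.73% of all protein-coding genes. With the top 1000 peaks, OCI-Ly1 replicate 2 had 12, VAL replicate 2 had 13, any library 19, both lines 9 and all libraries 5. The shares of all protein-coding genes were, in the same order, 5.05%, 4.55%, 7.67%, 3.07% and 1.57%. The families had 6 for RNA polymerase, 6 for GTF2, 0 for GTF3, 4 for TAF and 3 for Mediator. These lower counts follow from fewer peaks. Core genes only gave 6 for GTF2 and 12 for TAF, and without the TAF11L copies, an alternative chosen after seeing the data, TAF had 14. Leaving out 1 library gave from 8 to 39 genes bound in all libraries and from 8 to 39 in both lines. The low count in both lines was that without VAL replicate 2 (against 2.82% of all protein-coding genes). The high count in all libraries was that without VAL replicate 1 (against 12.5%). With the motif CCGGAAGT, 27.3% of the OCI-Ly1 replicate 2 peaks held it, as did 24.6% of those of VAL replicate 2, and with GGAA 83.6% and 78.7%, where control windows held 68.2% and 63.9%. Of 167 alternative values of the summary counts and shares, 138 stayed within 1.5 times the count, or within the interval of a share, and 29 did not, and of 848 others, nearly all the number of libraries in which a named gene was bound, 698 did and 150 did not. The read totals of the libraries are not known from the lists. Passing peaks of VAL replicate 1 had 8 or more reads at the summit, with a median of 17, and those of the other lists 6 or more, with a median of 8. A gene not called bound is not shown to be free of FLI1.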
